A study of Mus musculus with 9 samples.

Results

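The genes described are 8 of the 55453 genes counted in RNA of the whole mouse pancreas at stage e18.5: Gast, Nkx6-3, Clca1, Slc26a3, Lgals4, Tff1, Tff2 and Tff3, all known from the stomach or the intestine. They were chosen with the levels of these same libraries in view, because several were near absent from controls and present in the mutant groups. Their differences from the controls are therefore given as descriptions without a test. Each of 3 groups had 3 libraries, from embryos of a mixed C57BL6 strain. Control embryos carried Pdx1:Cre alone, a Cre recombinase under the promoter of Pdx1, which is active in pancreatic progenitors and in the neighbouring duodenum and antral stomach. The other groups were labelled Pdx1:Cre;Grg3 and Pdx1:Cre;Grg3Grg4, so that every library carried the same Cre. Grg3 and Grg4 are co-repressors of the Groucho family, encoded by Tle3 and Tle4. The labels do not name the alleles, and do not say whether littermates were used.

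The pancreas arises from the foregut endoderm between stomach and duodenum, and the epithelia of these organs share many regulators while differing in their secreted products. Gast encodes gastrin, the hormone of antral G cells that stimulates acid secretion, and it is also made transiently in the fetal pancreas. Nkx6-3 encodes a homeodomain factor of the antrum, Clca1 a protein that intestinal goblet cells secrete into mucus, Slc26a3 the chloride and bicarbonate exchanger of the colonic brush border, and Lgals4 a galectin of gut epithelium. The trefoil factors Tff1, Tff2 and Tff3 are small secreted peptides that protect mucosa: Tff1 is typical of the gastric surface, Tff2 of antral glands and mucous neck cells, and Tff3 of goblet cells.

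Gene counts summed to 46817453 to 62744499 per library. Levels are CPM, counts per 1e6 gene counts after TMM scaling of library sizes (trimmed mean of M values). Tle3 went against the labels, at 63.1 to 67.7 CPM in the controls, 145 to 167 under the label Grg3 mutant and 126 to 146 under the label Grg3 Grg4 mutant. Reads of a transcript that had lost some exons would still count toward its gene, and whether this bears on the level of Tle3 was not tested. The groups are therefore called by their labels, and directions hold between labels. By Xist and the Y-linked Ddx3y, the male libraries were the first control, the first labelled Grg3 mutant and all 3 labelled Grg3 Grg4 mutant, and the other 4 were female. The pancreatic label fitted the markers, with the acinar enzyme Cpa1 at 9423 to 23169 CPM over the 9 libraries. The 5 skeletal and cardiac muscle markers summed to 2.05 to 2.72 CPM in the controls and 14.7 to 30.2 under the label Grg3 mutant. Their sum was 40.0, 1499 and 6.94 CPM in replicates 1, 2 and 3 labelled Grg3 Grg4 mutant. Every library labelled mutant lay above all controls in this sum. In bulk RNA, a change in the number of cells of a type and a change in RNA per cell cannot be told apart.

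Gastrin RNA was low in every control and many times higher in all 6 libraries labelled mutant. Gast (ENSMUSG00000017165.1, chromosome 11, 100334407 to 100336996, GRCm38) stood at 0.939, 0.712 and 1.12 CPM in control replicates 1, 2 and 3, from 45, 34 and 51 counts. It stood at 20.7, 19.9 and 17.5 CPM in replicates 1, 2 and 3 labelled Grg3 mutant, from 1130, 1452 and 864 counts. In replicates 1, 2 and 3 labelled Grg3 Grg4 mutant it stood at 10.9, 7.62 and 7.61 CPM, from 604, 518 and 373 counts. The 3 groups did not overlap, and the libraries labelled Grg3 Grg4 mutant lay between the others. The change from control was 4.39 (SE 0.21) on the log2 scale for the label Grg3 mutant and 3.23 (SE 0.21) for the label Grg3 Grg4 mutant, a fold of 20.9 and 9.41.

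The 250 bases before the transcription start of Gast are shown because Gast had the highest level per length of the genes absent or low in controls. Of the 8 genes, 3 had a promoter in the RefSeq table (GRCm38.p6), and only the window of Gast lay outside every annotated gene. The window is chr11:100334157-100334406 on the plus strand, 5′ to 3′, with the motif match in capitals.
Gast: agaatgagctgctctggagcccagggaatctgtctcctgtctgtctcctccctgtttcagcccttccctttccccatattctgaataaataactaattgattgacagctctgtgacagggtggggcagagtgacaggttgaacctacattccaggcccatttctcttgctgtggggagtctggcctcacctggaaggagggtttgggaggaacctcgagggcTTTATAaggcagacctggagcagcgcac
The motifs searched on both strands were the TATA sequence TATAAA, the forkhead sequences TGTTTAC and TGTTTGC, the GATA sequence AGATAA and the CDX sequence TTTATGG. The 1 match was TATAAA read on the strand opposite to the gene, which begins 28 bases before the start. That sequence was in 12.4% of 32817 promoter windows of the same length, while the forkhead sequences were in 3.16% and 4.30%, AGATAA in 9.99% and TTTATGG in 2.43%.

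Nkx6-3 was at the edge of detection in the controls and well above it in every library labelled mutant. Nkx6-3 (ENSMUSG00000063672.7, chromosome 8, 23153269 to 23158948) stood at 0.355, 0.293 and 0.198 CPM in control replicates 1, 2 and 3, from 17, 14 and 9 counts. It stood at 15.7, 8.21 and 13.1 CPM in replicates 1, 2 and 3 labelled Grg3 mutant. It stood at 9.45, 5.29 and 8.96 CPM in replicates 1, 2 and 3 labelled Grg3 Grg4 mutant. The 2 mutant groups overlapped each other and neither overlapped the controls. The lowest mutant library, Grg3 Grg4 mutant replicate 2, was at 5.29 CPM against a highest control of 0.355. The change from control was 5.43 (SE 0.37) and 4.79 (SE 0.36) on the log2 scale, a fold of 43.2 and 27.7.

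**Figure D1:**
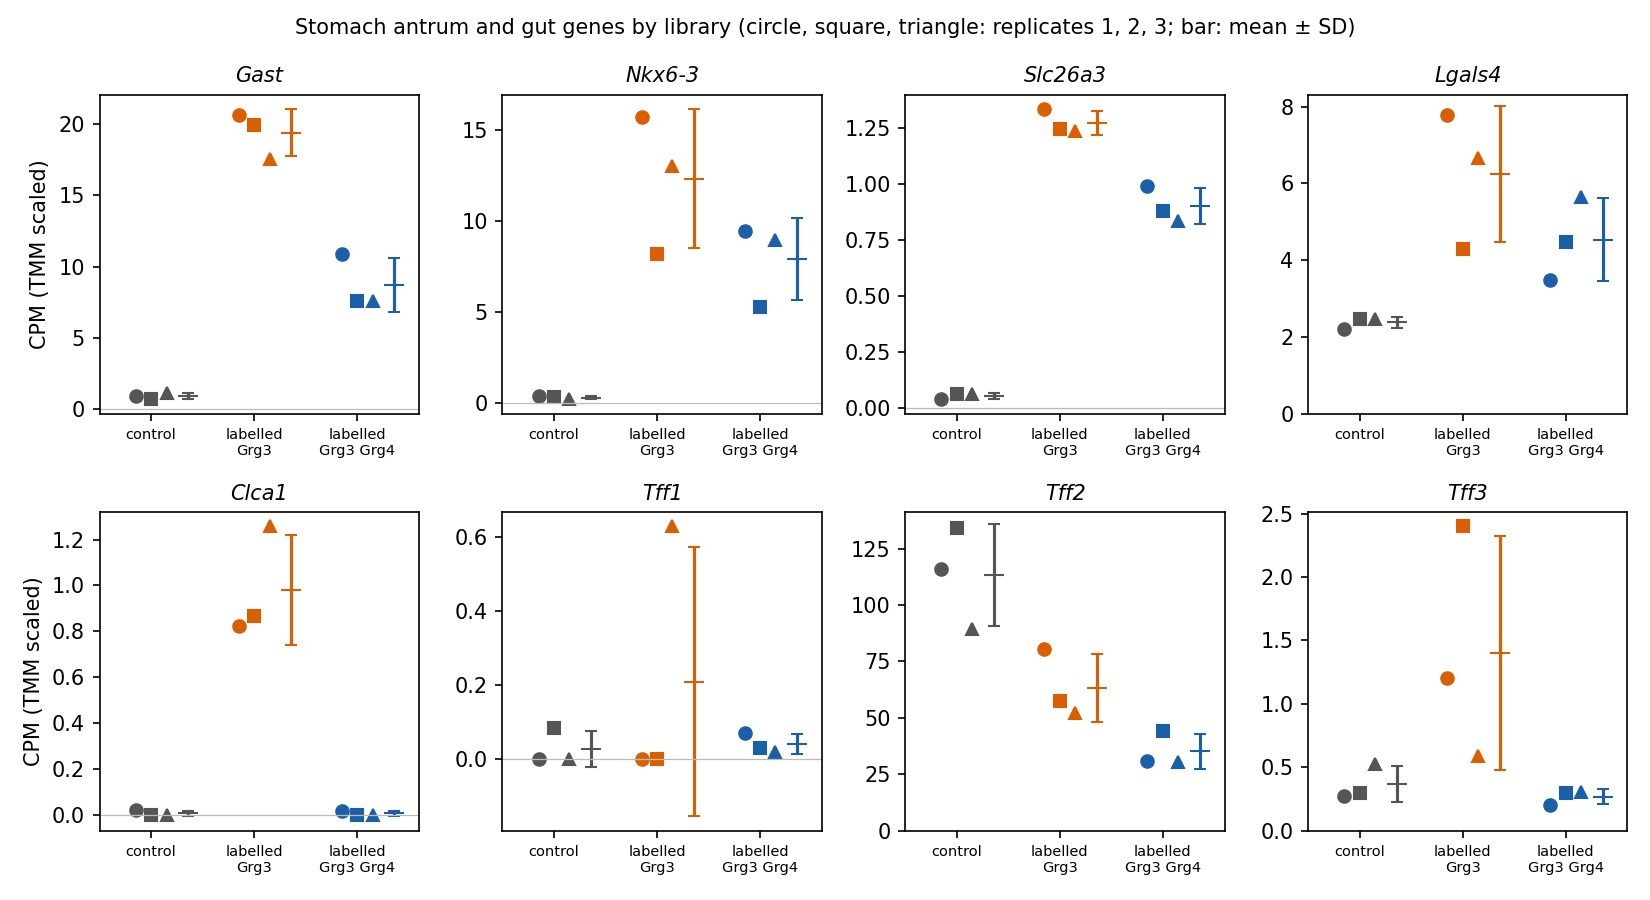
CPM of each of the 8 genes (vertical axis, linear) in the 9 libraries, grouped by label, with the mean and SD (n = 3) beside each group. Gast, Nkx6-3, Slc26a3 and Lgals4 lie above all controls in the 6 libraries labelled mutant, Clca1 only in the 3 labelled Grg3 mutant, and Tff2 lies below all controls in those 6 libraries.

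The anion exchanger Slc26a3 was almost uncounted in the controls and present at a low, even level in the libraries labelled mutant. Slc26a3 (ENSMUSG00000001225.12, chromosome 12, 31390871 to 31473917) had 2, 3 and 3 counts in control replicates 1, 2 and 3. It had 73, 91 and 61 counts in replicates 1, 2 and 3 labelled Grg3 mutant, at 1.33, 1.25 and 1.24 CPM. It had 55, 60 and 41 counts in replicates 1, 2 and 3 labelled Grg3 Grg4 mutant, at 0.992, 0.882 and 0.837 CPM. The 3 groups did not overlap, and the spread within each mutant group was small, with a coefficient of variation of 4.18% and 8.82%. Over the groups, 225 against 8 counts gave a ratio to control of 22.4 (exact 95% counting interval 11.2 to 52.6) for the libraries labelled Grg3 mutant. The ratio was 15.9 (7.90 to 37.6) from 156 counts for those labelled Grg3 Grg4 mutant. Such intervals cover counting error only.

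Lgals4 was measured in every library and differed by less. Lgals4 (ENSMUSG00000053964.17, chromosome 7, 28833854 to 28841708) stood at 2.21, 2.45 and 2.46 CPM in control replicates 1, 2 and 3. It stood at 7.77, 4.30 and 6.65 CPM in replicates 1, 2 and 3 labelled Grg3 mutant. It stood at 3.48, 4.47 and 5.63 CPM in replicates 1, 2 and 3 labelled Grg3 Grg4 mutant. Each library labelled mutant lay above all controls, and the mutant groups overlapped each other. The change from control was 1.39 (SE 0.25) and 0.93 (SE 0.25) on the log2 scale. Some mouse strains carry a near-identical copy, Lgals6, which is not among the genes counted here, so that in embryos of mixed strain reads of that copy could have been counted as Lgals4 or lost.

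Clca1 separated the labelled genotypes in another way: it was counted in all 3 libraries labelled Grg3 mutant and in almost none of the others. Clca1 (ENSMUSG00000028255.6, chromosome 3, 145003817 to 145032776; RefSeq gives gob-5 as a synonym) had 1, 0 and 0 counts in control replicates 1, 2 and 3. It had 45, 63 and 62 counts in replicates 1, 2 and 3 labelled Grg3 mutant, at 0.823, 0.865 and 1.26 CPM. It had 1, 0 and 0 counts in replicates 1, 2 and 3 labelled Grg3 Grg4 mutant. The libraries labelled Grg3 mutant, of which 1 was male and 2 were female, lay apart from all 6 others, and the rest could not be told from 0. The ratio of 170 to 1 counts against control was 136 (exact 95% counting interval 24.0 to 5387).

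The 3 trefoil factor genes lie side by side on chromosome 17, in the order Tff3 (31125306 to 31129646), Tff2 (31141049 to 31144282) and Tff1 (31161395 to 31165277), with gaps of 11402 and 17112 bases. Their levels differed in pattern over the libraries. Tff2 was abundant in the controls, at 116, 134 and 89.4 CPM in replicates 1, 2 and 3. It was lower in replicates 1, 2 and 3 labelled Grg3 mutant, at 80.3, 57.3 and 52.1 CPM. It was lower still in replicates 1, 2 and 3 labelled Grg3 Grg4 mutant, at 30.9, 44.1 and 30.4 CPM. The 3 groups did not overlap for Tff2, the one gene of the 8 that lay below the controls. Its change from control was -0.84 (SE 0.21) and -1.69 (SE 0.21) on the log2 scale, 1.79-fold and 3.22-fold lower. The acinar enzyme Cpa1 stood at 22014 ± 1922 CPM in the controls, 14816 ± 5299 under the label Grg3 mutant and 11980 ± 280 under the label Grg3 Grg4 mutant (SD, n = 3), and its part in the level of Tff2 was not tested.

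Tff3 had few counts in the controls, 13, 14 and 24 in replicates 1, 2 and 3, at 0.271, 0.293 and 0.528 CPM. It had 66, 175 and 29 counts in replicates 1, 2 and 3 labelled Grg3 mutant, at 1.21, 2.40 and 0.588 CPM. It had 11, 20 and 15 counts in replicates 1, 2 and 3 labelled Grg3 Grg4 mutant, at 0.198, 0.294 and 0.306 CPM. The libraries labelled Grg3 mutant lay above all 6 others, with Grg3 mutant replicate 2 highest by far, and the libraries labelled Grg3 Grg4 mutant overlapped the controls. The change from control was 1.95 (SE 0.52) and -0.45 (SE 0.54) on the log2 scale. Without Grg3 mutant replicate 2, the first value was 1.30. Tff1 came almost wholly from 1 library: it had 31 counts in Grg3 mutant replicate 3 and 0 in replicates 1 and 2 of that label. It had 0, 4 and 0 counts in control replicates 1, 2 and 3, and 4, 2 and 1 in replicates 1, 2 and 3 labelled Grg3 Grg4 mutant. Tff1 shares exonic sequence with Gm15318 on the opposite strand, and without a stated strand setting reads of the pair cannot be told apart.

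**Figure D2:**
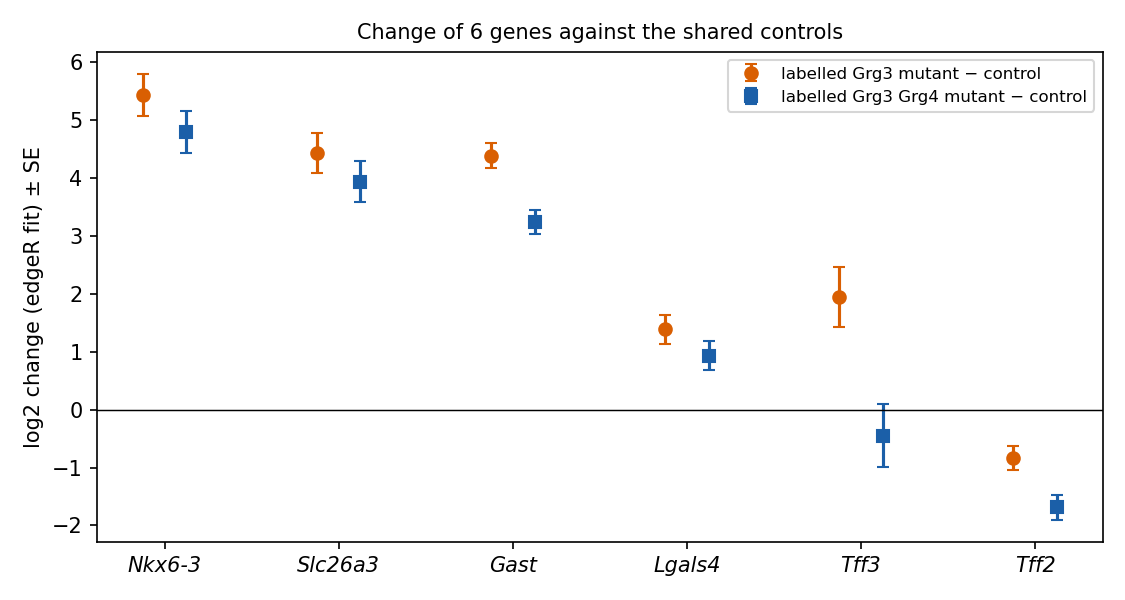
Log2 change of 6 genes against the same 3 controls, with SE, for the libraries labelled Grg3 mutant (circles) and Grg3 Grg4 mutant (squares). Nkx6-3, Slc26a3, Gast and Lgals4 lie above 0 and Tff2 below 0 in each comparison, while Tff3 lies at 1.95 and -0.45.

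In all, 6 of the 8 genes in the libraries labelled Grg3 mutant lay above every control and Tff2 lay below, where 24.6% of 19166 tested genes had replicates that did not overlap. In the libraries labelled Grg3 Grg4 mutant 4 lay above and Tff2 lay below, where 29.1% of tested genes did not overlap. These contrasts chose the genes, so nothing is read from the counts, and they share their controls. Of the 8 genes, 7 passed the filter on low counts, and Clca1 and Slc26a3 passed it through libraries labelled mutant only.

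The rule that chose the genes set mutant libraries against controls, and the direct comparison of the 2 mutant labels was tested. The genes were chosen with the levels of all these libraries in view, so this test is not independent of the choice. Gast fell by 1.15 (SE 0.18) on the log2 scale, 2.22-fold, with no overlap between 3 and 3 libraries (edgeR adjusted p = 0.0478). Of all 19166 genes, 0.188% were called in this comparison, 0.13% as higher and 0.0574% as lower. Clca1 had 1 count against 170, 166-fold lower (exact 95% counting interval 29.4 to 6586). It passed the filter on low counts only through the libraries labelled Grg3 mutant, where it was high, so that this difference is given as a description without a test.

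Tff3, Tff2, Nkx6-3, Slc26a3 and Lgals4, whose estimates were also below 0, did not pass. The differences were -2.39 (SE 0.53) on the log2 scale for Tff3 and -0.85 (SE 0.21) for Tff2, with edgeR adjusted p of 0.0898 and 0.115. Replicates did not overlap for Gast, Clca1, Slc26a3, Tff2 and Tff3, all lower, as for 21.1% of all tested genes in either direction and 9.3% with lower values. Nkx6-3 differed by -0.64 (SE 0.28), Slc26a3 by -0.49 (SE 0.27) and Lgals4 by -0.46 (SE 0.24), with edgeR adjusted p of 0.272, 0.366 and 0.358. The call of Gast ended in 11 of 15 alternatives, among them leaving out any 1 of the 9 libraries (edgeR adjusted p from 0.0515 to 0.167 where it ended). It also ended with embryo sex as a term (edgeR adjusted p = 0.138) and with the replicate block (edgeR adjusted p = 0.0677). Every library labelled Grg3 Grg4 mutant was male, while those labelled Grg3 mutant were of both sexes.

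Per kilobase of exonic sequence, the order of levels within the libraries labelled Grg3 mutant was Tff2 (108 ± 25.7 CPM per kb, SD, n = 3), Gast (42.1 ± 3.58), Nkx6-3 (5.51 ± 1.71), Tff3 (2.84 ± 1.87) and Lgals4 (2.69 ± 0.765). Tff1 (0.298 ± 0.516), Clca1 (0.260 ± 0.063) and Slc26a3 (0.200 ± 0.008) followed. Nkx6-3, Tff3 and Lgals4 were neighbours within their spread or near it, and so were Tff1, Clca1 and Slc26a3. In the controls Tff2 stood at 194 ± 38.7 CPM per kb, Gast at 2.01 ± 0.447 and Lgals4 at 1.03 ± 0.061, with the remaining 5 genes at 0.739 or less. In the libraries labelled Grg3 Grg4 mutant Tff2 stood at 60.2 ± 13.3, Gast at 18.9 ± 4.11 and Nkx6-3 at 3.53 ± 1.01. The length is that of all annotated exons of a gene, so that these values are lower for genes with many isoforms than per transcript.

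The paralogs of the 8 genes did not pass the edgeR test in any of the 3 comparisons. As background, 19.1%, 20.2% and 17.3% of all genes had an unadjusted p under 0.05 in the edgeR test of Grg3 mutant against control, Grg3 Grg4 mutant against control and Grg3 Grg4 mutant against Grg3 mutant. Nkx6-1, the islet and progenitor relative of Nkx6-3, stood at 51.1 to 61.1 CPM in the controls, 74.9 to 89.2 under the label Grg3 mutant and 47.9 to 69.1 under the label Grg3 Grg4 mutant (log2 changes from control of 0.51 and 0.05, edgeR adjusted p = 0.0904 and 0.858). Of the 2 Nkx6 paralogs, 1 had an unadjusted p under 0.05 and 1 was called by DESeq2 in each comparison. The other paralog, Nkx6-2, had a log2 change below 0 against control for each label. The median log2 changes of the 2 were -0.34, -1.49 and -1.16. Of the 6 Clca paralogs, which flank Clca1 on chromosome 3, 3 passed the filter and 0 were called by edgeR. In each comparison 0 had an unadjusted p under 0.05 and 0 were called by DESeq2. Clca3a1 stood at 20.8 to 29.4 CPM in the controls and 15.4 to 26.9 in the libraries labelled Grg3 mutant. Clca4b had 0.384 CPM in Grg3 mutant replicate 1 and 0 in the other 8 libraries. Of 10 Slc26 relatives, 8 were tested and 0 were called by edgeR against control in each mutant label, with 3 at an unadjusted p under 0.05 and 2 called by DESeq2 each time. The most abundant, Slc26a9, stood at 192 to 212 CPM in the controls and had log2 changes of -0.17 and 0.17. Slc26a4, the next Slc26 gene on chromosome 12, was at 0.412 CPM or less in every library. Of 7 galectins, 0 were called by edgeR against control, with 2 at an unadjusted p under 0.05 in each comparison and 0 and 2 called by DESeq2 for the labels Grg3 mutant and Grg3 Grg4 mutant. Lgals7, the nearest galectin to Lgals4, had log2 changes of -0.15 and -0.27.

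The gastrin receptors and other gut hormones did not pass the test in any comparison. Cckar, the receptor for cholecystokinin on acinar cells, stood at 826 to 901 CPM in the controls and 388 to 866 in the libraries labelled Grg3 mutant (log2 change -0.41, edgeR adjusted p = 0.385). Cckbr, which binds gastrin, stood at 0.877, 0.922 and 0.924 CPM in control replicates 1, 2 and 3. It stood at 0.292, 0.124 and 0.385 CPM in replicates 1, 2 and 3 labelled Grg3 mutant and at 0.451, 0.323 and 0 in those labelled Grg3 Grg4 mutant. Every library labelled mutant lay below all controls, and the log2 changes of -1.78 (SE 0.82) and -1.78 (SE 0.82) did not pass (edgeR adjusted p = 0.273 and 0.256). Of 10 genes of gut hormones and enteroendocrine enzymes, 9 were tested and 0 were called by edgeR in any comparison, with 0, 2 and 2 at an unadjusted p under 0.05 and 0, 1 and 2 called by DESeq2 for Grg3 mutant against control, Grg3 Grg4 mutant against control and Grg3 Grg4 mutant against Grg3 mutant. Their median log2 changes were 0.26, -0.34 and -0.63. Cck stood at 1.24 CPM or less, Sct at 1.21 or less and Gip at 0.264 or less in every library. The most abundant were Pyy, peptide YY, with log2 changes from control of 0.26 and -0.71 (edgeR adjusted p = 0.405 and 0.056), and Ghrl, which encodes ghrelin, with 0.37 and -0.34 (edgeR adjusted p = 0.314 and 0.345). Among neighbours of the Tff genes, Ubash3a, a regulator of T cell receptor signalling, rose by 3.73 on the log2 scale in the libraries labelled Grg3 Grg4 mutant (edgeR adjusted p = 0.0318) from 4 counts over the controls. Its call ended in 7 of 14 alternatives, among them embryo sex as a term and leaving out any 1 control. The other 5 neighbours tested did not pass.

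Other genes of stomach and intestine were examined in 5 lists, with 88 genes counted and 61 tested. Of the 61, 21 and 12 had an unadjusted edgeR p under 0.05 against control for the labels Grg3 mutant and Grg3 Grg4 mutant. Of all genes, 19.1% and 20.2% had. DESeq2 called 12 and 7 of the 61. At the adjusted threshold of edgeR, 1 rose and 0 fell in the libraries labelled Grg3 mutant. There 1.4% of all genes were called, 0.704% as higher and 0.694% as lower. The median log2 change was 0.37 against 0.02 over all genes. In the libraries labelled Grg3 Grg4 mutant 1 rose and 1 fell, where 2.14% of all genes were called, 1.24% as higher and 0.897% as lower, with a median of 0.21 against 0.01. The gene that rose was Apob, the apolipoprotein of chylomicrons and of liver lipoproteins, by 5.31 and 6.99 on the log2 scale (edgeR adjusted p = 0.045 and 0.0157). It stood at 0.645 CPM in Grg3 mutant replicate 2 and 12.6 and 3.08 in replicates 1 and 3, while the hepatocyte gene Alb stood at 37.9, 636 and 220. Apob lost its call in 8 of 15 and 4 of 15 alternatives, among them leaving out any 1 control and, for the label Grg3 mutant, its replicate 1 or 3. For the label Grg3 Grg4 mutant its call also ended with embryo sex as a term. The gene that fell was Zg16, a lectin of goblet cells and of pancreatic zymogen granules, by 1.16 (edgeR adjusted p = 0.0197), from 2179 to 2686 CPM in the controls to 1016 to 1094. Its call ended in 6 of 15 alternatives, again without any 1 control and with embryo sex as a term.

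The intestinal master regulators Cdx1 and Cdx2 did not pass the filter on low counts, and Cdx1 was at 0.238 CPM or less. Cdx2 had 1, 4 and 1 counts in control replicates 1, 2 and 3, then 27, 21 and 1 for the label Grg3 mutant and 1, 0 and 4 for the label Grg3 Grg4 mutant. Its ratio to control for the label Grg3 mutant was 6.51 (exact 95% counting interval 2.79 to 18.6), with replicate 3 at the control level. Of 11 gut transcription factors tested, 0 were called by edgeR in each comparison, with 0, 2 and 3 at an unadjusted p under 0.05 and 0 called by DESeq2. Of 10 goblet, Paneth and crypt cell genes tested, edgeR called 0, 1 and 0 in the same order of comparisons. At an unadjusted p under 0.05 were 4, 3 and 3, and DESeq2 called 4, 3 and 2. Muc2, the goblet cell mucin, stood at 0.755 CPM or less and did not pass (log2 changes from control of 0.16 and 0.32). Fcgbp, a protein of goblet cell mucus, stood at 3.86, 8.29 and 2.88 CPM in replicates 1, 2 and 3 labelled Grg3 mutant, against 1.78 to 2.30 in the controls and 0.970 to 1.94 in the libraries labelled Grg3 Grg4 mutant. It did not pass (edgeR adjusted p from 0.0849 to 0.425 over the 3 comparisons), and like Tff3 it was highest in Grg3 mutant replicate 2.

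By summed level, stomach genes stood out in 1 library. The summed level of 24 stomach genes was 218 CPM in Grg3 mutant replicate 3 and 25.8 to 38.0 in the other 8. A few genes made up much of these sums. Pga5 alone stood at 105 CPM in Grg3 mutant replicate 3 and at 2.88 to 10.1 elsewhere, and Barx1 stood at 6.56 to 17.3 CPM over all libraries. Of the 23 stomach genes with at least 10 counts in all, 16 were highest in Grg3 mutant replicate 3. The gastrokine Gkn2 had 6.36 CPM there, 0.055 in Grg3 mutant replicate 2 and 0 in the other 7 libraries, and Bpifb1 had 39.9 CPM there and 0.456 or less elsewhere. Cblif, another gene of the list, had 0 counts in every control. It had 24, 1 and 33 counts in replicates 1, 2 and 3 labelled Grg3 mutant. In replicates 1, 2 and 3 labelled Grg3 Grg4 mutant it had 5, 2 and 2. Over the 13 stomach genes tested, 0 were called by edgeR in each comparison, with 6, 1 and 5 at an unadjusted p under 0.05 and 3, 0 and 0 called by DESeq2, in the order used above. Against control, 12 of the 13 had a log2 change above 0 for the label Grg3 mutant, and 10 for the label Grg3 Grg4 mutant. The medians were 1.25 and 0.28, against 0.02 and 0.01 over all genes. Of the 18 intestinal absorptive genes tested, edgeR called 1, 1 and 0 in the same order of comparisons. At an unadjusted p under 0.05 were 11, 4 and 8, where 19.1%, 20.2% and 17.3% of all genes were. DESeq2 called 5, 3 and 2. The summed level of all 24 intestinal absorptive genes was 137 to 189 CPM in the controls. It was 90.1 to 186 CPM for the label Grg3 mutant and 144 to 286 for the label Grg3 Grg4 mutant. Krt20, at 62.3 to 111 CPM, and Vil1, at 32.4 to 41.1, made up most of the sum in the controls. The sum therefore says little about the less abundant genes of the list. Of the 21 with at least 10 counts in all, 7 were highest in Grg3 mutant replicate 1 and 6 in Grg3 Grg4 mutant replicate 2, where the protease gene Mep1a had 68.0 CPM. A shorter list of 8 intestine-defining genes, with Cdx1, Cdx2 and the goblet gene Muc2 among them, summed to 10.7 CPM in Grg3 mutant replicate 1 and to 0.607 to 1.91 in the other 8 libraries, and 6 of the 7 with at least 10 counts were highest there. The intestinal fatty acid binding gene Fabp2 had 3.35 CPM in Grg3 mutant replicate 1 and 0.588 or less elsewhere. Its relative Fabp1 was not confined to that library. Fabp1 had 13, 0 and 0 counts in control replicates 1, 2 and 3, and 564, 11 and 63 under the label Grg3 mutant. Under the label Grg3 Grg4 mutant it had 109, 154 and 275 counts, above all controls. Fabp1 did not pass against control (edgeR adjusted p = 0.111 for each label).

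**Figure D3:**
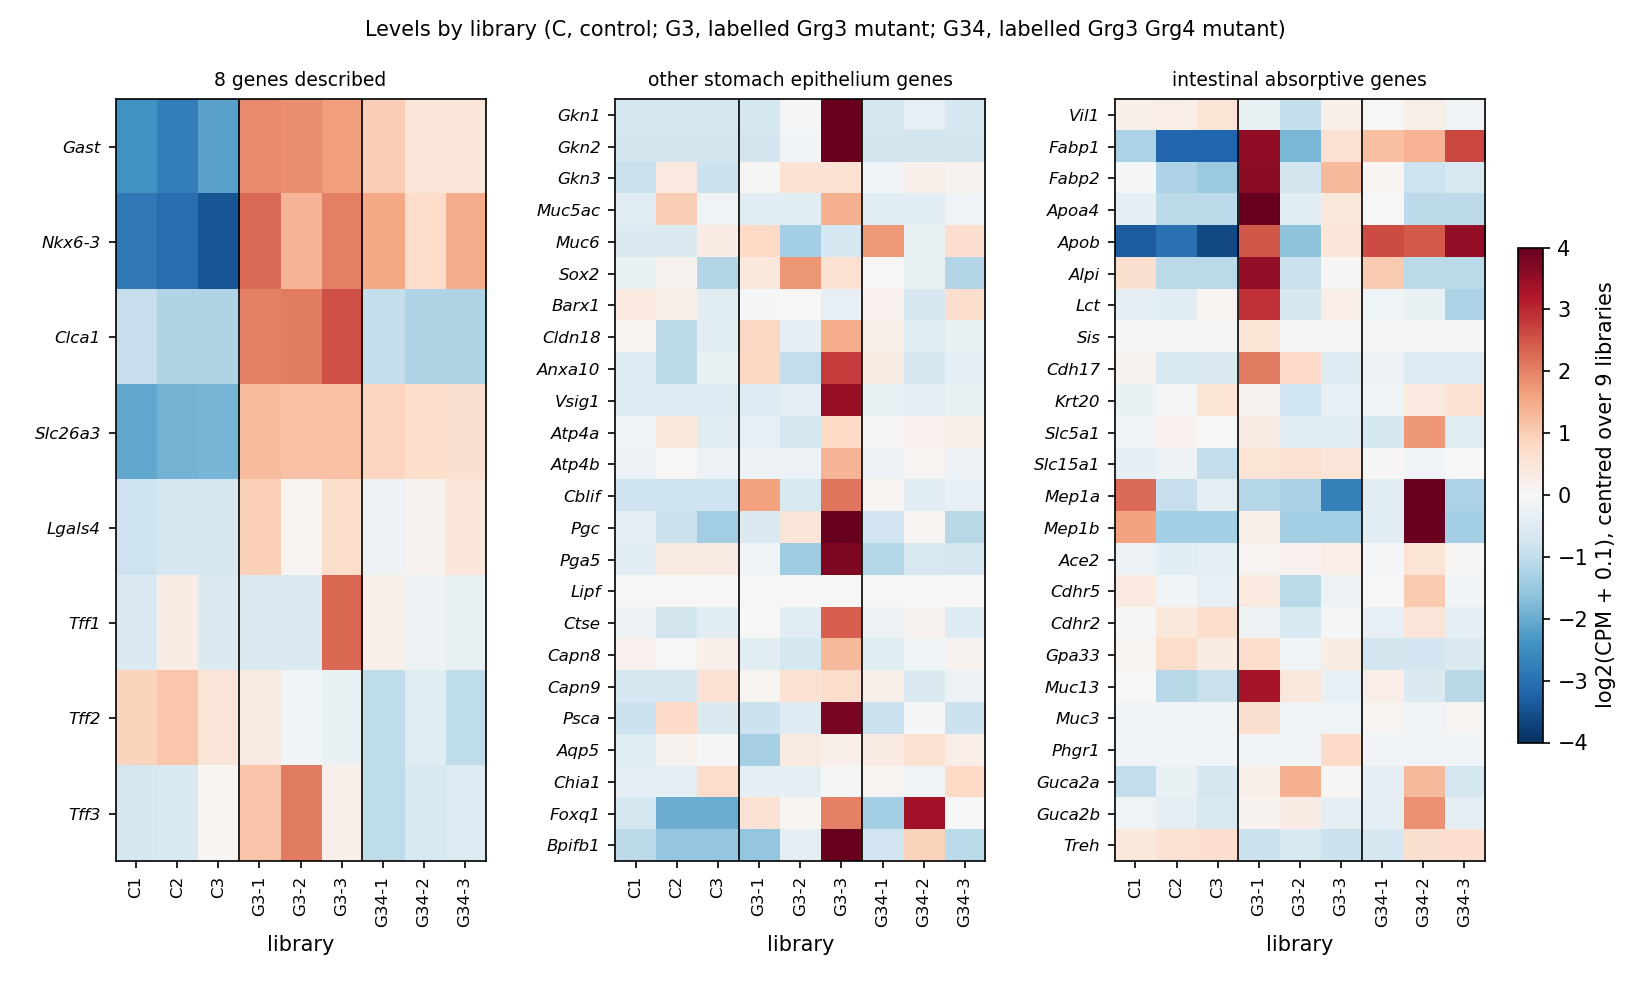
Level of the 8 genes, of 24 other stomach genes and of 24 intestinal absorptive genes in each library, as log2(CPM + 0.1) centred over the 9 libraries (red higher, blue lower). Most stomach genes are highest in the third library labelled Grg3 mutant and intestinal genes mostly in the first labelled Grg3 mutant (7 of 21) or the second labelled Grg3 Grg4 mutant (6 of 21), while Gast, Nkx6-3 and Slc26a3 are high in all 6 libraries labelled mutant.

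Beside these sums, the 8 genes differed among the libraries labelled Grg3 mutant. Replicate 3, with a stomach sum of 218 CPM, had the lowest Gast of its group (17.5 CPM), the highest Clca1 (1.26 CPM) and nearly all Tff1 counts. Replicate 2, with a stomach sum of 25.8 CPM and a defining intestinal sum of 1.91, had the lowest Nkx6-3 (8.21 CPM) and Lgals4 (4.30 CPM) of its group and the highest Tff3 (2.40 CPM). Replicate 1, with a defining intestinal sum of 10.7 CPM, had the highest Gast (20.7 CPM), Nkx6-3 (15.7 CPM) and Lgals4 (7.77 CPM). Slc26a3 lay within 1.08-fold over the 3 libraries. Without replicate 3 the change from control was 4.45 for Gast and 4.45 for Slc26a3 on the log2 scale. The part of stomach or intestinal tissue in these levels was not tested. Of 6 defining stomach genes, 2 (Gkn1 and Gkn2) were at 0 in every control. All 6 together summed to 3.02 to 6.01 CPM in the controls. That sum was 5.08 to 26.6 CPM under the label Grg3 mutant and 4.13 to 6.73 under the label Grg3 Grg4 mutant. In the controls it was nearly all Cldn18, at 5.93, 2.68 and 4.05 CPM in replicates 1, 2 and 3.

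Hepatocyte and smooth muscle markers lay above all controls in the 6 libraries labelled mutant, while 4 erythroid genes, at 704 to 756 CPM in the controls, ran from 843 to 1484 for the label Grg3 mutant and from 616 to 1328 for the label Grg3 Grg4 mutant. The 7 hepatocyte genes summed to 210.0 to 225 CPM in the controls. Their sum was 353 to 1614 CPM under the label Grg3 mutant and 782 to 1857 under the label Grg3 Grg4 mutant. Gene by gene the differences were larger, with median log2 changes from control of 6.43 and 7.05. In each comparison 5 of the 7 were called higher by edgeR, where 0.704% and 1.24% of all genes were. Fga rose from 5 counts over the controls to 6681 and 8052. Of the 7 genes, 0 were at 0 counts in a whole group. The 6 smooth muscle genes summed to 124 to 183 CPM in the controls. Their sum was 313 to 969 CPM under the label Grg3 mutant and 225 to 961 under the label Grg3 Grg4 mutant. The part of these tissues in the levels of the 8 genes was not tested.

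**Figure D4:**
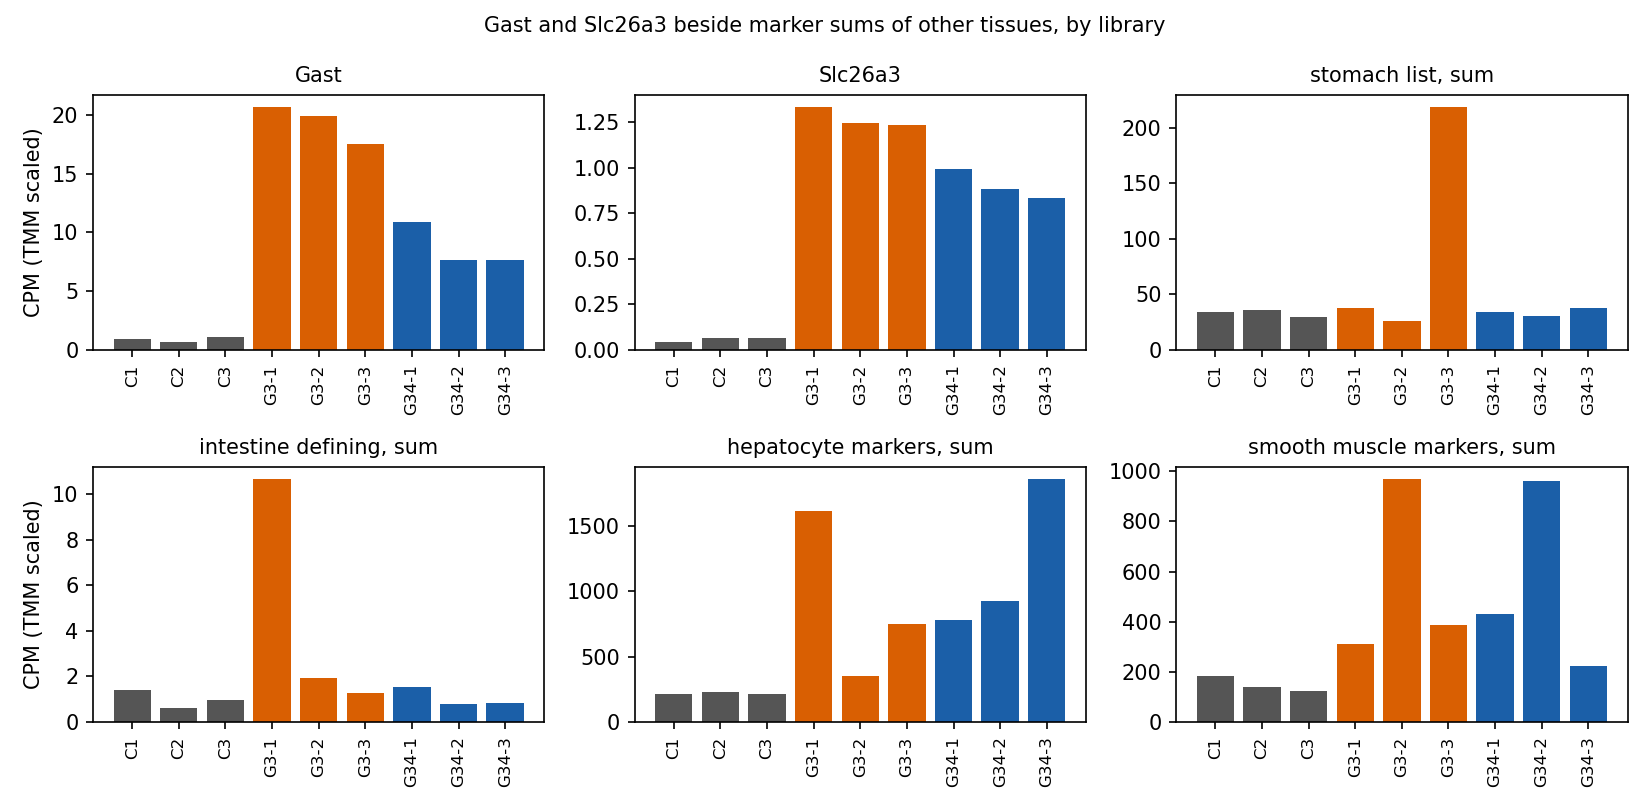
CPM of Gast and Slc26a3, and summed CPM of marker lists of stomach, intestine, liver and smooth muscle (vertical axes, linear from 0), in the 9 libraries. Gast and Slc26a3 step up in all 6 libraries labelled mutant, and the hepatocyte and smooth muscle sums also lie above all controls in those 6. The stomach sum is high in 1 library (218 CPM) and the sum of 8 intestine-defining genes in another (10.7 CPM). The sum of 24 absorptive genes, not drawn, was highest in Grg3 Grg4 mutant replicate 2 (286 CPM).

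The tested genes with the most similar levels over the 9 libraries were sought by the root mean square difference of centred log2 CPM. The genes described were chosen with the levels of these same libraries in view. Nearness of 1 of them to another is therefore partly built in by the choice, and nothing is read from it. For Gast the nearest of 19165 genes was Slc26a3, at 0.36, and the 2 were each other's nearest. The next for Gast were Pnoc, the precursor of nociceptin, at 0.51 and Tgm7, a transglutaminase, at 0.52. The next for Slc26a3 were Serpina1c, which lies near the hepatocyte marker Serpina1a on chromosome 12, at 0.50 and the pseudogene Gm18227 at 0.52. Serpina1c stood at 0.264 to 0.710 CPM in the controls. It stood at 4.74 to 7.64 CPM under the label Grg3 mutant and 2.51 to 4.31 under the label Grg3 Grg4 mutant. For Nkx6-3 the nearest were the pseudogene Gm18227 at 0.62, Gast at 0.72 and Slc26a3 at 0.76. For Clca1 they were the processed pseudogenes Gm12247 at 0.46, Gm18860 at 0.58 and Gm4864 at 0.71, on chromosomes 11, 8 and 12. Gm4864 stood at 2.32 to 2.77 CPM in the libraries labelled Grg3 mutant, 0.132 to 0.314 in the controls and 0.029 to 0.144 in those labelled Grg3 Grg4 mutant. Processed pseudogenes resemble their parent genes, so their counts may hold reads of another gene. For Tff3 the nearest were Fcgbp at 0.42, Gm38197 at 0.50 and Themis3 at 0.50. For Lgals4 they were Abhd11os at 0.23, Efna3, an ephrin, at 0.24 and Ms4a14 at 0.25. For Tff2 they were Gm34121 at 0.28, Pof1b, an actin-binding protein of epithelia, at 0.29 and the RNA Bc1 at 0.30.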

How the data were processed

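RNA-seq of whole pancreas from 9 embryos at embryonic day 18.5 was analysed. The values deposited are whole-number read counts for each gene symbol, which the authors had not normalized. Tools listed in the submitters' processing notes are HTSeq, HISAT2, Trim Galore, FastQC, DESeq2 and bedtools, with GRCm38 and mm10 as builds. For their roles, versions, annotation and strand setting: not given in the sources used here. Rows that name no gene (5 per file, 28.5% to 33.2% of reads) stayed out of library sizes and tests. Replicates of a label differed by more than counting noise (chi-square per degree of freedom 18.5 to 213). Nothing in the labels says more about how replicates were obtained, so p-values measure the spread between these libraries.

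Genes were tested with edgeR 4.0.16 (quasi-likelihood F test, 2-sided; R 4.3.3), with TMM scaling, filterByExpr (minimum count 10, minimum total 15; 19166 genes kept), all 9 libraries in 1 fit, and Benjamini-Hochberg adjustment over all genes tested; a gene was called at an adjusted p under 0.05. The SE was taken as the log2 change over the square root of F. Levels in CPM are counts per 1e6 on TMM-scaled sizes. Groups with 1 to 9 counts got a ratio with an exact 95% interval. Positions and exonic lengths come from GENCODE M21 (GRCm38), which may not be the authors' annotation. The fit was tested on simulated data. Alternatives were DESeq2 1.42.0 size factors, DESeq2's Wald test, no filter beyond 1 count, at least 1 CPM in 3 libraries, the replicate number as a block, embryo sex as a term, and each library left out. The genes, lists and tests were chosen with earlier results of these data known. The rule for naming took in the 8 genes, from each list called genes (up to 6) and the 2 most abundant, and the 3 nearest genes per gene by pattern. Not all genes that this rule took in are given, and Smoc2 of the goblet, Paneth and crypt cell list is among those left out. Further members of these lists, such as Gkn2, Bpifb1, Cblif, Mep1a, Fabp1, Fabp2, Fcgbp, Clca4b, Slc26a4, Lgals7, Muc2, Cdx1 and Cdx2, were named after their values were seen.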

Additional observations from a re-analysis of the deposited data

How the results depend on the processing

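Genes called were 268 (Grg3 mutant against control), 410 (Grg3 Grg4 mutant against control) and 36 (Grg3 Grg4 against Grg3 mutant). They were 586, 930 and 228 with no filter, 1463, 1553 and 1019 by DESeq2's Wald test, and 169, 30 and 4 with embryo sex as a term. At 1 CPM in 3 libraries the third count was 75. Leaving out 1 library gave 32 to 327, 50 to 825 and 6 to 49, with the lowest counts without control replicate 3 in the first 2 comparisons and without Grg3 mutant replicate 1 in the other. The other stomach and intestine genes called, 1 and 2 against control, were 8 and 6 with no filter, 12 and 7 by DESeq2, 2 and 0 with sex, and 0 to 3 in each when 1 library was left out. With the replicate block the counts were 167, 254 and 11, and 0 and 2 of the stomach and intestine genes. Replicate numbers of the labels did not pair the libraries: same-numbered libraries of different labels had correlations of their deviations from -0.09 to 0.09.

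Log2 changes of Gast, Nkx6-3, Slc26a3, Lgals4 and Tff2 from control kept their sign under the 15 alternatives (Gast 4.23 to 4.55 and 3.04 to 3.39). That of Clca1 in the Grg3 Grg4 mutant label, from 1 count against 1, ran from -2.03 to 1.84. Between mutant labels, Tff2 and Tff3 passed with no filter (edgeR adjusted p = 0.0302 and 0.0451) and by DESeq2 (0.0031 and 0.00266). The cause of these shifts was not tested. Depth limits Clca1, Slc26a3 and Tff1 in the controls, with 1, 8 and 4 counts over 3 libraries.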
